A study of Mus musculus with 2 samples.

Results

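Haem is built from glycine and succinyl-CoA in a chain of enzymes that begins and ends in mitochondria, and iron reaches the last enzyme through the transferrin receptor and a carrier of the inner mitochondrial membrane. The 9 genes described here cover this route: *Alas1* and *Alas2* (the general and the erythroid form of the first enzyme), *Alad*, *Urod*, *Cpox* and *Ppox* (enzymes between the first and the last), *Fech* (ferrochelatase, which puts iron into the ring), *Slc25a37* (mitoferrin 1, the mitochondrial iron carrier) and *Tfrc* (transferrin receptor 1, also known as CD71). They were taken by name from the 22652 genes of the count tables, and all 9 were listed in both libraries. Red cell precursors are known for the largest demand for haem in the body, which they meet by switching to *Alas2* and by taking up transferrin-bound iron, and osteoclasts, the multinucleated cells that resorb bone, are known for taking up iron through the same receptor.

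The data were single-cell RNA counts from femoral bone marrow of C57BL/6 mouse embryos at E18.5, with 1 library labelled WT and 1 labelled Bmx-CreER Wls. In the latter a tamoxifen-inducible Cre under the *Bmx* promoter, active in arterial endothelium, removed a floxed *Wls*, the gene of a protein needed for Wnt secretion, after tamoxifen was given to the dams. Whether the WT embryos carried Cre or floxed alleles or were exposed to tamoxifen, and how many embryos were pooled, is not stated in the sources used here. Both marrows had been depleted with magnetic beads of cells positive for Ter119, Gr-1, B220 or CD3e, and Ter119 depletion removes later red cell precursors. The sequenced cells were caught in microwells and their transcripts counted from the 3′ end with unique molecular identifiers (UMIs).

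The WT library held 5998 barcodes and 22708005 UMIs, of which 5736 cells were kept, and the Bmx-CreER Wls library held 6825 barcodes and 24704991 UMIs, of which 6620 cells were kept. The median depth per kept cell was 3128 UMIs and 3067 UMIs, and 49 barcodes occurred in both libraries. *Wls* had 84 UMIs in endothelial-like cells of the WT library and 42 in those of the Bmx-CreER Wls library, a ratio of levels of 0.544 (95% interval 0.366–0.797). These cells were not split into arterial and other endothelium. Over all barcodes *Wls* was also lower, at 133 UMIs per 1000000 in the WT and 111 in the Bmx-CreER Wls library. Because there was 1 library per genotype and cells of 1 library are not replicates, no comparison below carries a test. Levels are in CPM, the number of UMIs a gene had for every 1000000 UMIs counted in the named cells, with an exact Poisson 95% interval, and each ratio carries an exact conditional 95% interval. These intervals cover counting error only.

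Cells were clustered without the 9 genes and named from marker lists. The erythroid-like class held 170 cells in the WT library (2.96% of kept cells, exact binomial 95% interval 2.54–3.44) and 72 in the Bmx-CreER Wls library (1.09%, 0.852–1.37). Its leading genes were *Ermap*, *Mt2*, *Rhag*, *Rhd*, *Klf1* and *Epor*, that is, blood group and ammonium carrier genes, an erythroid transcription factor and the erythropoietin receptor. Of 23 erythroid markers present in the tables, 20 had at least 1 UMI in these cells in each library, and *Slc4a1* (the anion exchanger of mature red cells), *Hbb-y* and *Hba-x* had none. Haemoglobin genes gave 100 of the 2216302 UMIs of the class and never exceeded 0.135% of the UMIs of a cell. The cells are therefore described as erythroid-like cells with almost no haemoglobin mRNA. The summed level of the 23 markers was 2231 and 2026 CPM in them, against 338 and 436 CPM in the other haematopoietic-like cells and 3.99 and 13.3 CPM in osteoclast-like cells, and the 20 stem and progenitor markers summed to 1738 and 1648 CPM in them against 4001 and 3585 CPM. The other haematopoietic-like class (353 and 268 cells) pooled stem and progenitor, granulocyte, monocyte, mast, basophil, megakaryocyte and macrophage markers, and the osteoclast-like class (165 and 105 cells) joined a subcluster led by *Ckb*, *Oscar*, *Ctsk*, *Acp5* and *Mmp9* with one led by *S100a4*, *Lpl* and *Prdm1*. At another cluster resolution, with 30 principal components in the clustering or with a looser cell filter, the class held 88 to 91 and 55 to 58 cells.

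Sequences are shown for the genes whose regulation is known to involve the letters marked, with each sequence written 5′ to 3′. *Tfrc* mRNA is known to be stabilised at low iron through iron-responsive elements, hairpins bound by iron regulatory proteins, and *Alas2* mRNA carries such an element that blocks its translation at low iron. In the untranslated regions of 21877 coding genes (GENCODE transcripts, GRCm38), the hairpin was searched as a C, 5 paired bases, a CAGTGN loop whose last base was not G, and 5 paired bases, with G·U pairs allowed. It occurred in 122 genes (0.558%), and *Tfrc* was the single gene with at least 3 matches. The 4 matches in *Tfrc*, all in the 3′ untranslated part, and the match in the 5′ untranslated part of *Alas2* are given below with the loop in capitals.
Tfrc chr16:32631222-32631244 (+): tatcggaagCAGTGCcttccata
Tfrc chr16:32631601-32631623 (+): tatcgggagCAGTGTcttccata
Tfrc chr16:32631666-32631688 (+): tatcggagaCAGTGAtctccata
Tfrc chr16:32631713-32631735 (+): tatcgggaaCAGTGTttcccata
Alas2 chrX:150547461-150547483 (+): gttcgtcctCAGTGCagggcaac
The same kind of hairpin was also found in *Fth1* and *Ftl1* (the ferritin chains) and *Slc40a1* (the iron exporter ferroportin), each with 1 match in the 5′ untranslated part. No other member and no other gene of the haem and iron list had a match, and the search says nothing of hairpins of another form.

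The 250 bases before the transcription start were read from RefSeq (GRCm38.p6) for 7 of the 9 genes, and *Fech* and *Slc25a37* had no entry. The letters AGATAA or TGATAA, the core that the erythroid factor GATA1 is known to bind, were searched on both strands. They occurred in 5452 of 32851 promoters (16.6%), and among the members in *Cpox* and *Alas2* only. The 2 windows are shown because *Cpox* was the member with the highest ratio between erythroid-like and other haematopoietic-like cells and *Alas2*, its erythroid partner at the first step, was not detected in the same cells. Capitals mark the matched letters, which lie on the reverse strand and begin 86 bases before the start in both genes. A match describes the letters and not a bound site.
Cpox chr16:58669958-58670207 (+): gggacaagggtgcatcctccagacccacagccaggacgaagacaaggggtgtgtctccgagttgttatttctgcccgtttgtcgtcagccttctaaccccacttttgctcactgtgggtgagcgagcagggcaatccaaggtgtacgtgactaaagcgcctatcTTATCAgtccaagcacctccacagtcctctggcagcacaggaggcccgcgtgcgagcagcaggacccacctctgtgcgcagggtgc
Alas2 chrX:150547167-150547416 (+): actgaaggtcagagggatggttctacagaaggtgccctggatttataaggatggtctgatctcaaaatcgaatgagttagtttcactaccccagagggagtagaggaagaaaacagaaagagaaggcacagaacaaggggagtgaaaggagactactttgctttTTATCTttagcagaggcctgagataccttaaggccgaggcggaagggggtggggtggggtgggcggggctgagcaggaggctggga

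The first question was which steps of the route were higher in erythroid-like cells than in the other haematopoietic-like cells of the same marrow. All 4 middle enzymes, *Fech* and *Tfrc* were at least 2-fold higher in erythroid-like cells in both libraries, whereas *Alas1* was lower in both and *Slc25a37* was not higher. Thus 6 of the 8 members with at least 20 UMIs over the 2 classes were at least 2-fold higher in each library. Among all genes with as many UMIs, 4.4% of 9618 genes in the WT library and 4.54% of 8941 genes in the Bmx-CreER Wls library were. At least 2-fold lower was 1 member, *Alas1*, in each library, against 19% and 20.2% of genes. The median ratio of the 8 members was 2.96 and 2.66, against 0.933 and 0.939 over all genes tested.

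**Figure D1:**
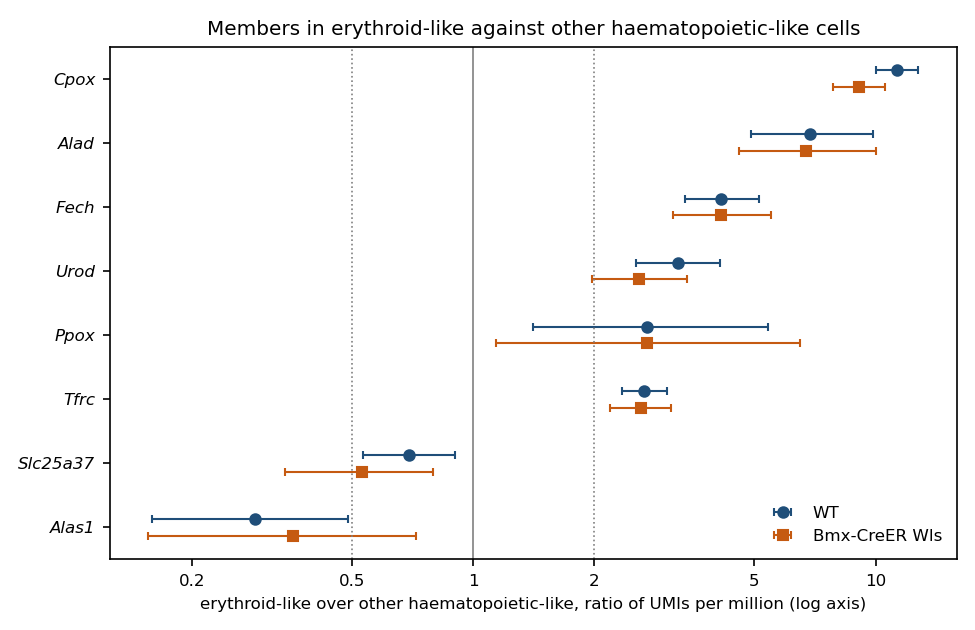
Ratio of CPM in erythroid-like over other haematopoietic-like cells (log axis) for 8 members, with circles for the WT library, squares for the Bmx-CreER Wls library and bars for the exact 95% interval of counting. A solid line marks 1 and dotted lines mark 2 and 0.5. *Cpox* lies at 11.3 and 9.09, 5 further members lie above 2, and *Alas1* and *Slc25a37* lie below 1.

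*Cpox*, coproporphyrinogen oxidase, stood furthest apart. It reached 1648 CPM (1585–1713) in erythroid-like cells of the WT library and 1300 (1214–1390) in those of the Bmx-CreER Wls library, against 146 and 143 in the other haematopoietic-like cells. The ratios were 11.3 (10–12.8) and 9.09 (7.86–10.6), and the former was 5.74 with 30 components, where the class shrank to 84 and 35 cells. *Cpox* was found in nearly every cell of the class. At least 1 UMI was found in 98.2% of the WT erythroid-like cells, at a median of 9511 UMIs per cell, against 46.7% of other haematopoietic-like, 33.3% of cartilage-like and 17.1% of endothelial-like cells, at medians of 5758, 2745 and 2966.5. Cells with at least 1000 UMIs were also thinned to 1000 UMIs each, with shallower cells left out here and wherever thinning is named. The shares were then 73.7%, 12%, 12.3% and 4.74%, of 167, 349, 2398 and 570 cells.

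*Alad*, which makes porphobilinogen, showed the next highest ratio. Its level was 134 CPM (116–153) and 156 (127–189) in erythroid-like cells of the 2 libraries, against 19.5 and 23.2 in the other haematopoietic-like cells, ratios of 6.88 (4.90–9.87) and 6.71 (4.58–10). *Fech*, the last enzyme, stood at 238 (214–263) and 212 (178–251) against 57.4 and 51.3, ratios of 4.14 (3.36–5.12) and 4.14 (3.13–5.49). *Urod*, uroporphyrinogen decarboxylase, stood at 154 (135–175) and 176 (145–211) against 47.9 and 67.8, ratios of 3.22 (2.54–4.10) and 2.59 (1.98–3.39). The lower bound for *Urod* in the Bmx-CreER Wls library was thus just under 2. The size of these ratios moved with the cells compared. Against stem and progenitor cells alone the *Fech* ratios were 6.16 and 11.8. With cells thinned to 1000 UMIs the *Alad* ratio in the WT library was 3.48. There *Alad* was found in only 8.38% of 167 erythroid-like and 2.58% of 349 other haematopoietic-like cells. That ratio thus rests on few counts of a single random draw.

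*Ppox*, the enzyme between *Cpox* and *Fech*, was counted rarely. Its ratios of 2.7 (1.41–5.4) and 2.71 (1.14–6.49) rested on 30 and 13 UMIs in erythroid-like cells, so that its 2-fold call was not firm at this depth. The *Ppox* gene overlaps *B4galt3* on the other strand, and *Cpox* overlaps *Gpr15*, *Alas1* overlaps 4930500F10Rik and *Alas2* overlaps *Apex2* and *Mir3620* in the same way. *Slc25a37* overlaps Gm27222, Gm27223 and Gm31748 on the other strand and Gm20236 on its own strand. Whether the counting used strand is not stated in the sources used here, and without strand, reads from overlaps on the other strand cannot be told apart.

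The iron side of the route was split. *Tfrc* stood at 474 CPM (440–509) and 409 (362–461) in erythroid-like cells against 178 and 157 in the other haematopoietic-like cells, ratios of 2.66 (2.35–3.02) and 2.61 (2.2–3.11). *Slc25a37* went the other way, with 57.6 (46.3–70.8) and 44.3 (29.7–63.6) in erythroid-like cells against 83.0 and 83.7. Its ratios were 0.694 (0.532–0.900) and 0.529 (0.342–0.794). With cells thinned to 1000 UMIs the WT ratio was 0.970, so that mitoferrin 1 mRNA was not firmly lower in the WT library. That ratio rests on few counts, with *Slc25a37* found in 7.78% of 167 erythroid-like and 7.74% of 349 other haematopoietic-like cells.

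**Figure D2:**
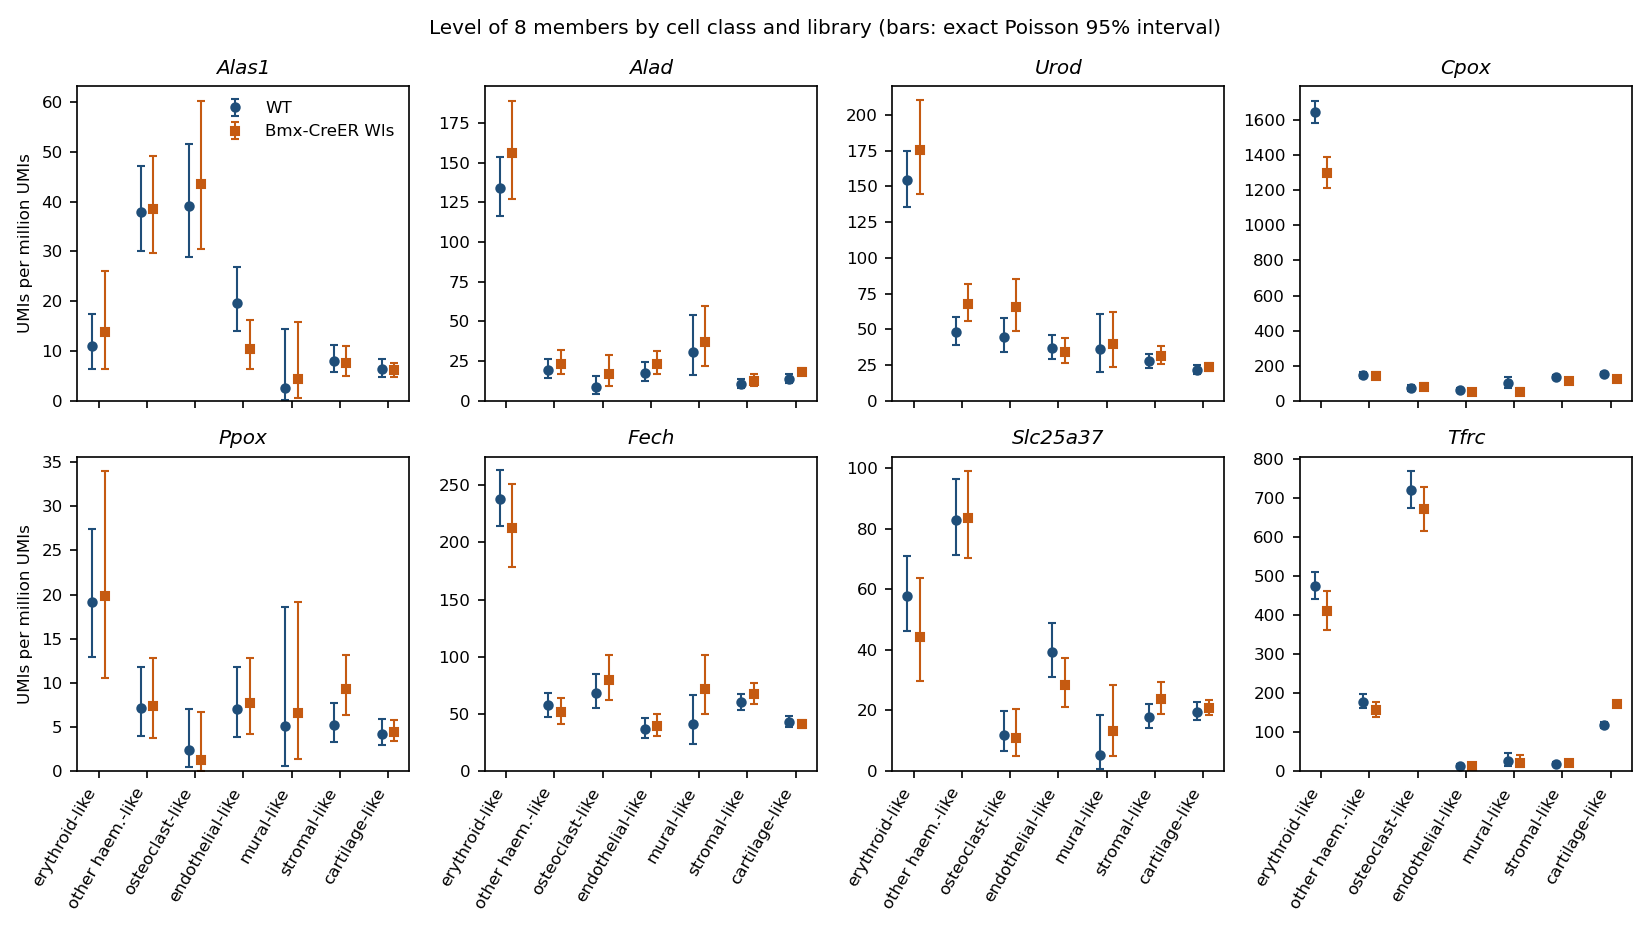
Level of 8 members (CPM, linear axes from 0) in 7 cell classes, with circles for the WT library, squares for the Bmx-CreER Wls library and bars for the exact Poisson 95% interval. *Alad*, *Urod*, *Cpox*, *Ppox* and *Fech* are highest in erythroid-like cells in both libraries, *Tfrc* in osteoclast-like cells and *Slc25a37* in other haematopoietic-like cells.

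Of the 2 forms of the first enzyme, *Alas2* was not detected in erythroid-like cells. *Alas1* was lower there than in the pooled other haematopoietic-like cells. *Alas1* stood at 10.9 CPM (6.34–17.4) and 13.7 (6.28–26.1), against 38.0 and 38.5 in the other haematopoietic-like cells, ratios of 0.287 (0.159–0.488) and 0.357 (0.156–0.722). This contrast was not shared by all of the other haematopoietic-like cells. With libraries summed, *Alas1* was at 126 CPM (102–154) in the subcluster of 83 cells led by *Prg2*, *Elane*, *Prtn3*, *Mpo* and *Epx*, granule genes of neutrophil and eosinophil precursors that include 2 peroxidases, enzymes that carry haem. It was at 44.8 (18–92.3) in the 59 cells led by *S100a9*, *Ngp* and *S100a8*, and at 13.5 (8.02–21.4) in the 236 cells with stem and progenitor markers. Against these last cells alone the ratio of the erythroid-like cells was 1.0 in the WT library and 0.765 in the Bmx-CreER Wls library.

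*Slc25a37* was also highest in the *Prg2*- and *Elane*-led subcluster, at 147 CPM (121–177), followed by the *S100a9*-led cells at 102 (58.6–166), an interval that overlaps the former. The stem and progenitor cells and the subcluster with basophil and megakaryocyte genes stood at 69.9 and 68.2, with intervals that overlap that of the erythroid-like cells, 53.7 (44.5–64.3). Of the 3 blood classes the osteoclast-like cells had the least *Slc25a37*, 12 CPM (6.69–19.7) and 10.9 (4.97–20.7).

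*Alas2* had 2 UMIs in the WT library and 1 in the Bmx-CreER Wls library. None of the 3 lay in an erythroid-like cell, where 0 counts allow at most 1.92 CPM in the WT library and 4.58 in the Bmx-CreER Wls library. Of the 2 found in kept cells, 1 lay in a WT cartilage-like cell and 1 in an unnamed cell. The last one lay in a WT barcode with at most 200 genes that had been removed by the cell filter.

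That barcode belonged to a very small set. In each library 2 barcodes of at most 200 genes drew at least 50% of their UMIs from haemoglobin genes, and together they held nearly all the haemoglobin UMIs of the barcodes with few genes, 1629 of 1630 and 1073 of 1073. Of the 2077 UMIs in the WT pair, 7 were from *Slc25a37*, 5 from *Fech*, 1 from *Cpox* and 1 from *Alas2*, and none from *Tfrc*, *Alad*, *Urod*, *Ppox* or *Alas1*. This put *Slc25a37* at 3370 CPM (1355–6944) and *Fech* at 2407 (782–5618), both above their levels in erythroid-like cells. In the Bmx-CreER Wls pair, of 1149 UMIs, 2 were from *Fech* and 1 from *Slc25a37*. With so few barcodes these are values of single cells, and a count of 0 there allows a level up to 1444 and 2611 CPM.

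In a wider list of haem and iron genes, of 61 listed, 56 were found by symbol and 45 had at least 50 UMIs over both classes and libraries. Of these 45, 10 were at least 2-fold higher in erythroid-like cells in both libraries, as were 2.59% of the 8889 genes with as many UMIs. In single libraries, 12 of 46 tested in the WT library and 12 of 44 in the Bmx-CreER Wls library were at least 2-fold higher, where 4.4% and 4.54% of genes were. At least 2-fold lower were 6 in each library, a smaller share than the 19% and 20.2% of all genes. The median ratios of the list were 1.32 and 1.36, against 0.933 and 0.939 over all genes. *Uros*, uroporphyrinogen III synthase, had ratios of 2.39 (1.56–3.73) and 1.52 (0.779–2.87).

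Highest of the list was *Blvrb*, biliverdin reductase B, at 268 and 276 CPM against 23.7 and 22.6, ratios of 11.3 (8.40–15.5) and 12.2 (8.55–17.9). *Hebp1*, a haem-binding protein gene, had ratios of 6.75 and 4.91, and *Tfr2*, the second transferrin receptor, of 5.33 and 4.2. *Steap3*, the ferrireductase that acts on iron freed from transferrin, had ratios of 3.83 and 3.69, and *Slc11a2*, which carries that iron out of the endosome, of 3.10 and 2.08. The mitochondrial genes were *Abcb6* (3.64 and 3.57), *Slc25a38*, the glycine carrier (2.78 and 3.03), *Glrx5*, of iron-sulphur cluster assembly (2.80 and 2.93), and *Tmem14c*, a porphyrinogen carrier (2.42 and 2.25).

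Among the list genes with at least 50 UMIs, ordered by their mean log ratio over both libraries, the lowest 5 were *Lrp1*, *Trf*, *Hmox1*, *Bach1* and *Fbxl5*. *Trf*, transferrin itself, and *Lrp1*, a receptor that takes up haem bound to haemopexin, had no UMI in erythroid-like cells of either library against 34 and 37 UMIs and 29 and 30 UMIs in the other cells. *Hmox1*, haem oxygenase 1, had ratios of 0.169 (0.0434–0.476) and 0.114 (0.00275–0.703), and *Bach1*, a haem-sensing repressor, of 0.470 (0.330–0.659) and 0.446 (0.273–0.698). *Fbxl5*, which marks an iron regulatory protein for breakdown, had ratios of 0.750 (0.481–1.15) and 0.385 (0.133–0.915).

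**Figure D3:**
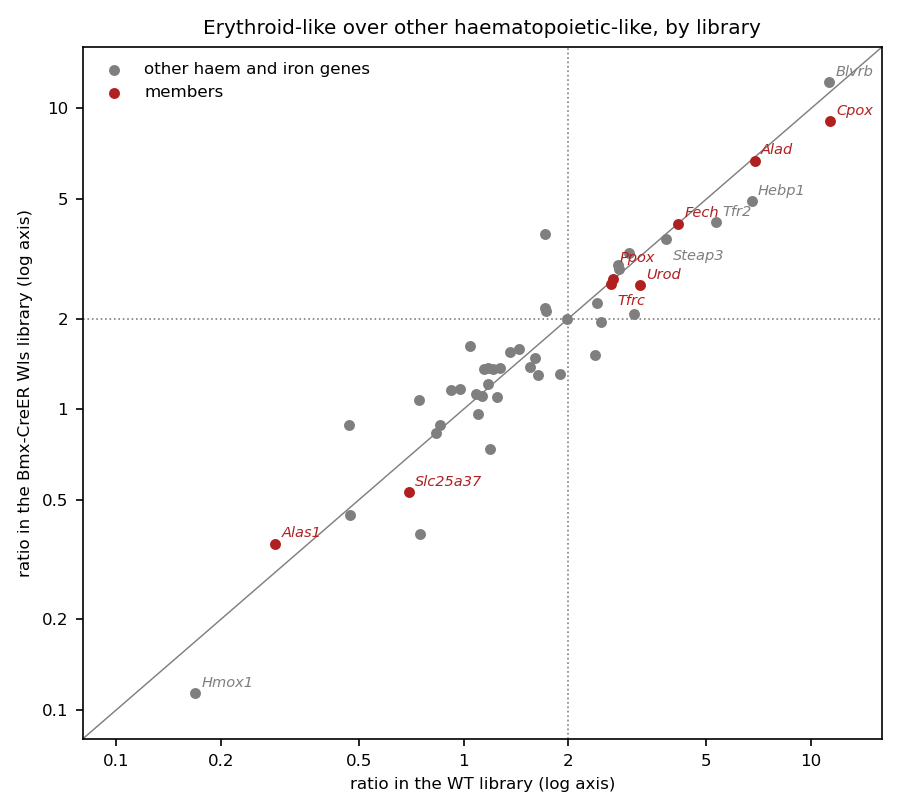
Ratio of CPM in erythroid-like over other haematopoietic-like cells in the WT library (x, log axis) against the Bmx-CreER Wls library (y, log axis) for 8 members in red and for the other haem and iron genes with at least 20 UMIs in grey, genes at 0 left out. The diagonal marks equal ratios and dotted lines mark 2. *Blvrb* (11.3 and 12.2) and *Cpox* (11.3 and 9.09) lie furthest to the upper right and *Hmox1* (0.169 and 0.114) to the lower left.

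Outside the erythroid-like cells the enzymes after the first step were lower in each named class. *Cpox* lay between 48.0 CPM, in mural-like cells of the Bmx-CreER Wls library, and 153, in WT cartilage-like cells. *Urod* lay between 21.7 and 67.8, *Fech* between 36.7 and 79.8, and *Alad* between 8.77 and 37.1. Among stromal-like cells, *Cpox* was higher in the cluster of 500 cells led by *Mmp13*, *Ibsp* and *Spp1*, genes of bone-forming cells, at 177 (161–194), than in the 1577 cells led by *Clec3b* and *Mfap5*, at 102 (92.9–111).

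Few UMIs of erythroid genes accompanied *Cpox* in cartilage-like and stromal-like cells. *Rhag* had 152 and 159 UMIs per 1000 *Cpox* UMIs in erythroid-like cells, 0.789 and 0.631 in cartilage-like cells, and none in stromal-like cells. *Klf1* had 162 and 195 UMIs per 1000 *Cpox* UMIs in erythroid-like cells, 2.37 and 4.42 in cartilage-like cells, and 4.9 and 10.6 in stromal-like cells. A total of 51 cells that clustered with the haematopoietic cells but were led by *Col2a1*, *Col9a1* and *Acan* stayed unnamed, and they had 335 *Cpox* CPM (281–396).

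The second question was the level of the route in osteoclast-like cells against the stromal-like cells of the bone. *Tfrc* was the member that set osteoclast-like cells apart, at 720 CPM (674–768) and 671 (616–729) against 18.1 (14.4–22.4) and 20.7 (16.1–26.1) in stromal-like cells. The ratios were 39.9 (31.8–50.5) and 32.5 (25.3–42.3). These levels were also above those of the erythroid-like cells, by 1.52 (1.38–1.68) and 1.64 (1.41–1.90). At least 1 *Tfrc* UMI was found in 87.9% of the WT osteoclast-like cells. Among cells thinned to 1000 UMIs the share was 47.8%, against 34.7% of erythroid-like and 0.877% of endothelial-like cells.

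*Alas1* was the other member higher in osteoclast-like cells in both libraries, at 39.1 (28.9–51.6) and 43.5 (30.5–60.2) against 8.05 and 7.48, ratios of 4.85 (3.10–7.65) and 5.81 (3.39–10.1). *Urod* crossed 2-fold in the Bmx-CreER Wls library only, with ratios of 1.63 (1.17–2.25) and 2.08 (1.47–2.91). *Fech* was within counting error of the stromal-like level, at 1.14 (0.886–1.46) and 1.18 (0.886–1.56), and *Cpox* was lower, at 0.527 (0.417–0.660) and 0.675 (0.508–0.883). In all, 2 and 3 of 8 members were at least 2-fold higher, where the share over all genes was 20% and 19.5%, so the count of members was near that of genes at large.

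The osteoclast-like cells fell into 2 subclusters. The one led by *Ckb* had an osteoclast marker score of 0.979, against 0.222 for the next marker list. The one led by *S100a4* had a score of 0.363, against 0.280, and was thus named less firmly. The score is the mean level of the listed markers relative to the highest subcluster. With libraries summed, in the 144 cells led by *Ckb*, *Oscar*, *Ctsk* and *Acp5*, *Tfrc* stood at 769 CPM (722–819), and in the 126 cells led by *S100a4*, *Lpl* and *Prdm1* at 592 (540–648). The summed level of S and G2M phase genes was 610 CPM in the former and 4483 in the latter, and its part in the *Tfrc* levels was not tested.

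Cartilage-like cells formed the largest class, with 2456 and 3998 cells, and *Tfrc* divided them from the stromal-like cells. It stood at 118 CPM (110–125) and 171 (164–178), ratios to stromal-like cells of 6.52 (5.21–8.26) and 8.28 (6.52–10.7). This comparison was added after the values were seen. No other member passed 2-fold upward in either library, while 9.02% of 12316 genes and 8.84% of 12611 genes did. Cartilage-like cells held 30% of the *Tfrc* UMIs of kept cells in the WT library and 59.9% in the Bmx-CreER Wls library. They made up 42.8% and 60.4% of kept cells. Of all kept UMIs they held 8262187 of 22266017 in the WT library and 13037427 of 24385649 in the Bmx-CreER Wls library.

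In each library all 5 cartilage-like clusters had more *Tfrc* than any of the 3 stromal-like clusters, which lay between 10.3 and 34.3 CPM. The level was lowest in the cells led by *Col10a1* and *Ihh*, genes of hypertrophic chondrocytes, at 57.9 (48.7–68.4) in the WT library and 95.2 (83.6–108) in the Bmx-CreER Wls library. It was 128 (111–148) and 143 (131–157) in the *Prg4*- and *Cilp*-led cells, and 106 (92.6–122) and 168 (151–186) in the *Epyc*- and *Matn1*-led cells, so that the order of these clusters was not the same in the 2 libraries. The dividing cells stood at 158 (138–181) and 219 (202–238), and the cells led by *Ucma* and *Matn4* at 218 (189–250) and 237 (218–257). The last cells were highest in both libraries, with an interval that overlapped that of the dividing cells in the Bmx-CreER Wls library. The summed level of S and G2M phase genes, libraries summed, was 8534 CPM in the dividing, 926 in the *Prg4*-led, 775 in the *Ucma*-led, 706 in the *Epyc*-led and 180 in the *Col10a1*-led cells. The part of the cell cycle in the *Tfrc* levels was not tested.

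Few *Acp5* UMIs, of the osteoclast acid phosphatase, accompanied *Tfrc* in cartilage-like cells. *Acp5* had 4857 and 4896 UMIs per 1000 *Tfrc* UMIs in osteoclast-like cells, but 21.6 and 18.8 in cartilage-like cells. *Ctsk*, the osteoclast cathepsin, had 22669 and 20573 in osteoclast-like cells and 316 and 191 in cartilage-like cells. Erythroid *Klf1* had 564 and 619 UMIs per 1000 *Tfrc* UMIs in erythroid-like cells, and 3.08 and 3.14 in cartilage-like cells.

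**Figure D4:**
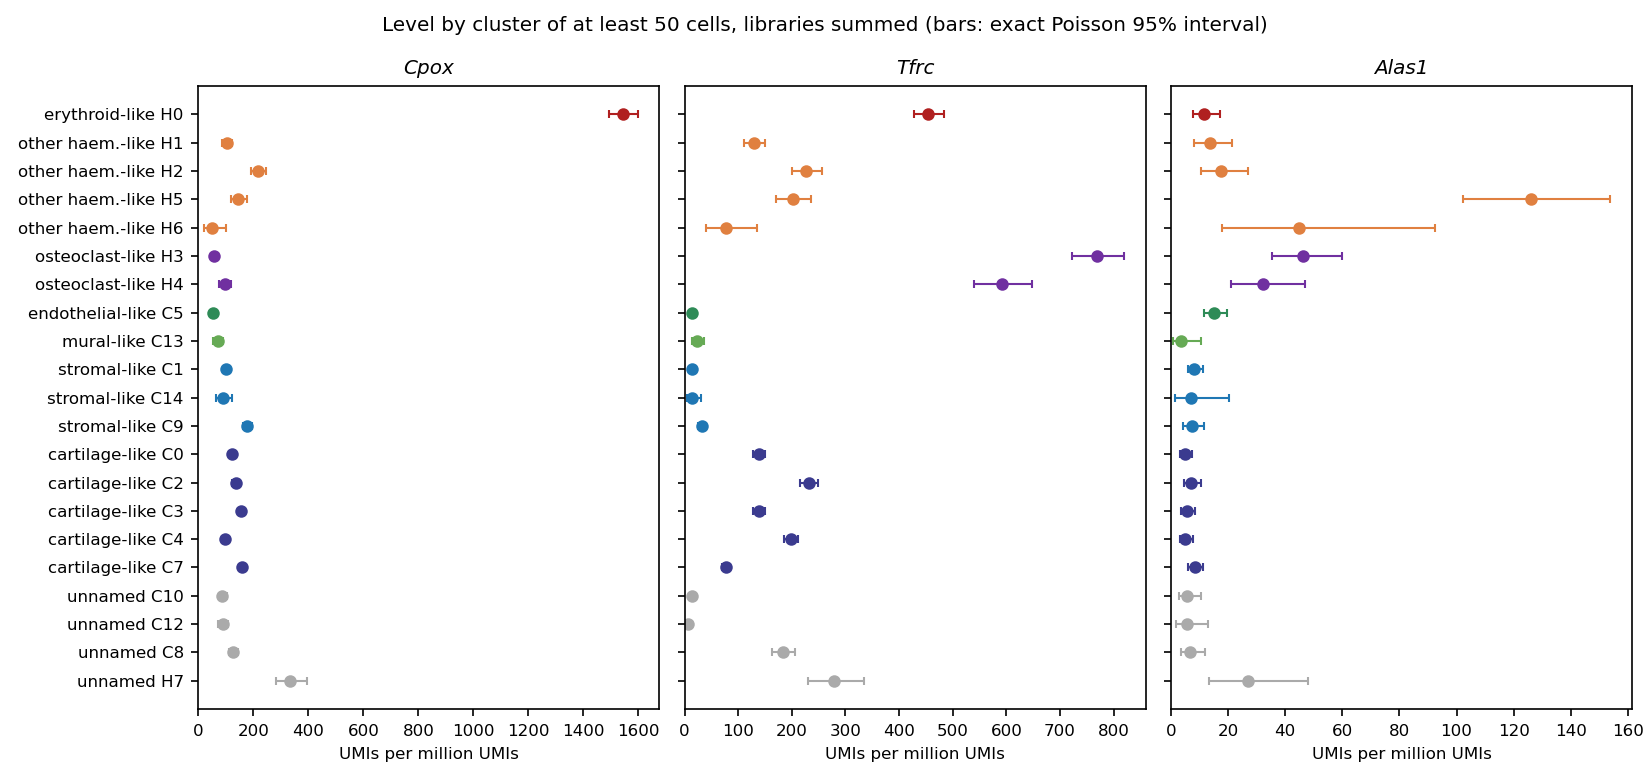
Level of *Cpox*, *Tfrc* and *Alas1* (CPM, linear axes from 0) in the 21 clusters of at least 50 cells, libraries summed, coloured by class, with exact Poisson 95% intervals. *Cpox* is highest in the erythroid-like cluster, *Tfrc* in the 2 osteoclast-like clusters (769 and 592), with the 5 cartilage-like clusters at 77.1 to 232, and *Alas1* in the cluster H5 led by *Prg2* and *Elane* (126).

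Across those 21 clusters, with libraries summed, the genes whose log2 level was most like that of each member were ranked among 11133 genes, as a description of clusters that share their libraries. *Cpox* was most like *Ermap* (Pearson r 0.87), *Cited4* (0.86) and *Rhd* (0.84), and *Fech* most like *Ermap* (0.83), *Txnrd2* (0.78) and *Blvrb* (0.77). *Alas1* was most like *Gsr* (0.90), *Rgs19* (0.89) and *Clec12a* (0.88), and *Tfrc* most like *Ivns1abp* (0.85), *Grsf1* (0.83) and *Dok1* (0.83). For *Alad* these were *Acbd6* (0.90), *Mnat1* and *Rrp8* (0.87 each), for *Urod* *Ttll12* (0.95), *Ddx21* and *Eif3j1* (0.93 each), for *Ppox* *Fgfbp3* (0.88), *Tlk1* (0.87) and *Ccdc23* (0.83), and for *Slc25a37* *Top3b* (0.89), *Rfx7* and *Rnf130* (0.88 each). Among the members, *Alad* and *Ppox* were most alike (0.76) and *Alas1* and *Ppox* least (-0.52).

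The last question was how the Bmx-CreER Wls library compared with the WT library. In erythroid-like cells none of the 8 members differed by at least 1.5-fold, where 16% of 7955 genes did. *Cpox* was lower beyond counting error, at 0.789 (0.729–0.853), and *Tfrc* at 0.864 (0.748–0.994). *Alad* at 1.16, *Urod* at 1.14, *Ppox* at 1.03, *Fech* at 0.893, *Slc25a37* at 0.768 and *Alas1* at 1.26 had intervals that included 1. With 1 library each, a difference between genotypes and one between libraries cannot be told apart.

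Over all kept cells the *Cpox* level was 236 CPM in the WT and 145 CPM in the Bmx-CreER Wls library, a ratio of 0.615 (0.589–0.641), further from 1 than in the erythroid-like, stromal-like or cartilage-like cells, though not than in mural-like cells. It was the single member past 1.5-fold over all kept cells, where 15% of 15526 genes were. The erythroid-like cells held 48.9% of the *Cpox* UMIs in the WT library and 24.0% in the Bmx-CreER Wls library. Class levels were then weighted by the share of each class in the kept UMIs of a library. With the class levels of the Bmx-CreER Wls library and the shares of the WT library the *Cpox* ratio was 0.822. With the WT levels and the shares of the Bmx-CreER Wls library it was 0.745. How the beads and the dissociation bear on the make-up was not tested.

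In cartilage-like cells *Tfrc* was higher in the Bmx-CreER Wls library, at 1.45 (1.35–1.57), and *Cpox* lower, at 0.792 (0.735–0.854). *Tfrc* was higher in each of the 5 cartilage-like clusters, with intervals above 1 in 3 of them: 1.58 (1.33–1.88) in the *Epyc*-led, 1.38 (1.18–1.62) in the dividing and 1.64 (1.33–2.04) in the *Col10a1*-led cells. In the *Prg4*-led and *Ucma*-led cells the ratios of 1.12 and 1.09 were within counting error of 1. Past 1.5-fold in either direction were 12% of 12755 genes in cartilage-like cells and none of the 8 members.

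In other haematopoietic-like cells none of the 8 members passed 1.5-fold, where 13.5% of genes did, and *Urod* was highest at 1.42 (1.07–1.87). In osteoclast-like cells *Tfrc* was at 0.932 (0.837–1.04) of the WT level, and *Alad* passed 1.5-fold, at 1.93 (0.814–4.70), on 14 and 11 UMIs, an interval that includes 1. In stromal-like cells *Ppox* passed 1.5-fold, at 1.78 (1.01–3.17), on 31 and 24 UMIs, and in endothelial-like cells *Alas1* was lower, at 0.530 (0.289–0.94), on 19 and 39. Past 1.5-fold were 17.5%, 13% and 12.3% of genes in these 3 classes, so single members past it were not more than genes at large.

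In mural-like cells 2 of 5 members passed 1.5-fold, where 23.3% of genes did. These were *Cpox*, lower at 0.492 (0.277–0.853) on 22 and 38 UMIs, and *Fech*, at 1.75 (0.937–3.41) on 33 and 16, an interval that includes 1. In the WT library 1 mural-like cell held 13 of the 38 *Cpox* UMIs. The WT mural-like cells also held 3 *Klf1*, 3 *Rhag* and 8 *Car1* UMIs, and those of the Bmx-CreER Wls library 0 of each. The part of single cells and of erythroid transcripts in this *Cpox* ratio was not tested. In the unnamed cells 3 of 8 members passed 1.5-fold, against 20.4% of genes. There *Tfrc* was at 1.87 (1.52–2.31), *Alad* at 1.71 (1.05–2.88) and *Ppox* at 1.62 (0.690–4.08). The unnamed cells are a mixture, and their largest cluster held 171 cells of the WT and 355 of the Bmx-CreER Wls library.

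**Figure D5:**
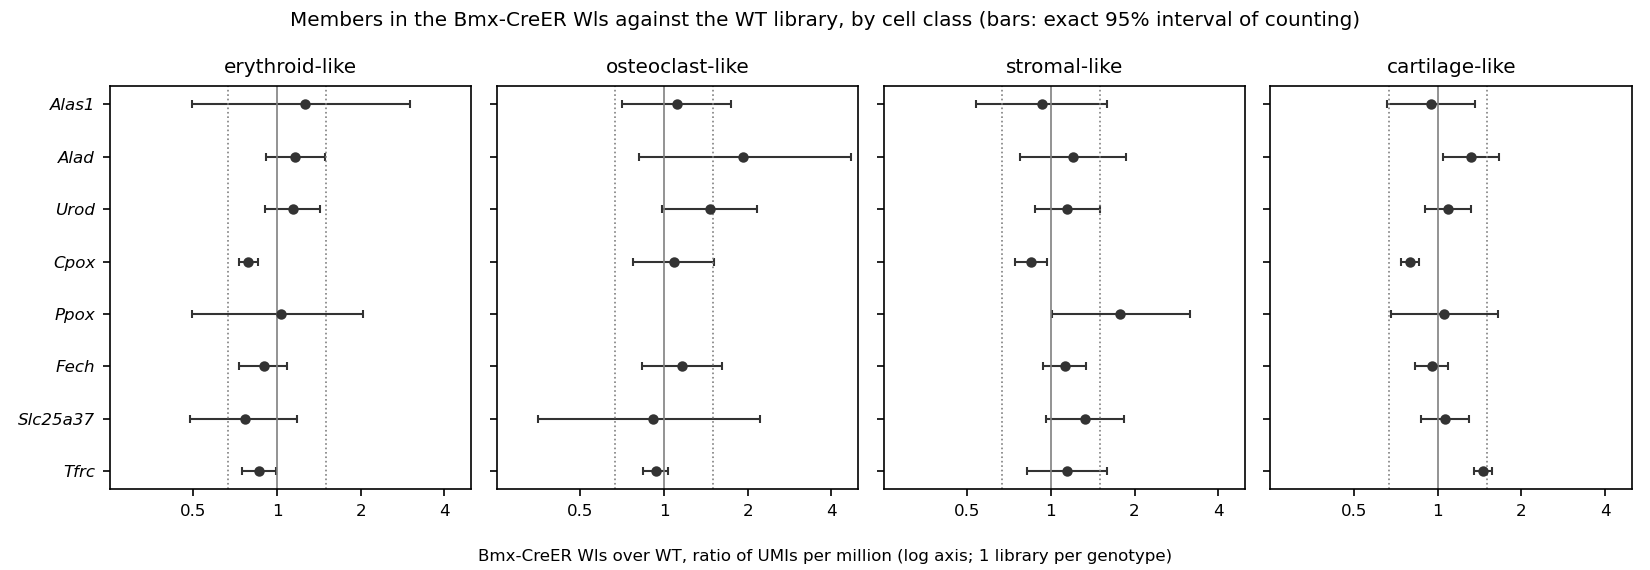
Ratio of CPM in the Bmx-CreER Wls over the WT library (log axis) for the members with at least 20 UMIs in 4 cell classes, with bars for the exact 95% interval of counting. A solid line marks 1 and dotted lines mark 1.5-fold either way. *Cpox* lies below 1 in erythroid-like, stromal-like and cartilage-like cells, and *Tfrc* lies at 1.45 in cartilage-like and at 0.864 in erythroid-like cells.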

How the data were processed

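Per the labels and the study's methods, the authors demultiplexed reads with bcl2fastq 2.19.1.403, took barcodes and UMIs with UMI-tools 1.0.1, aligned with STAR 2.7.1a to mm10 and counted with featureCounts 1.6.4 of Subread. They deposited 1 table per library of whole-number UMI counts per gene and cell, not normalized. The members and lists were chosen with earlier results of these data known.

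Cells with more than 200 and under 5000 genes and under 30% mitochondrial counts were kept, following the study. Counts were scaled to 10000, and variable genes (mean 0.0125 to 3, dispersion above 0.5; members, other haem and iron genes and cell cycle genes left out) gave 11 components, 20 neighbours and Leiden clusters at resolution 0.5 (scanpy 1.11.5, leidenalg 0.10.2). Erythroid cells were then merged with other blood cells, so the haematopoietic clusters were clustered again and clusters were named from marker lists, steps added after the data were seen. A name needed 3 detected markers and a score 1.25 times that of the next list (3 times where none of its markers was among the 10 leading genes). The score also had to reach 0.25, and no other list could have more markers among those 10 genes. Subclusters of 159 and 20 cells that got no name but had blood markers among these genes were pooled into the other haematopoietic-like class. Scrublet called 39 WT cells (0.68%) and 0 Bmx-CreER Wls cells and thus did not work, so no doublet was removed, and an alternative leaves out the 5% of cells with the highest scores.

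Genes with at least 20 UMIs over both groups were compared, against 2-fold between classes and 1.5-fold between libraries. A count of 0 allows 3 counts. The text names the 9 members, the other haem and iron genes with at least 50 UMIs that were 2-fold higher in both libraries (1 of them and a split of the erythroid-like cells are not reported here), the 5 lowest, and the 3 genes most like each member by log2(level + 1). *Uros*, the leading genes of clusters and the genes of the hairpin search were named after their values were seen. The symbols *Flvcr1*, *Flvcr2*, *Hamp*, *Hjv* and *Ftmt* were not matched. *Hjv* was also listed under its older symbol *Hfe2*, which is not among the unmatched. Symbols were those of the older mm10 annotation, and whether the others were absent under another symbol or for want of counts was not tested. The class the study lists for each WT cell and TMM factors of edgeR 4.0.16 served as alternatives for the cell labels and the scaling. Interval code was tested on simulated counts. The haemoglobin ranges (1%, 10% and 30%) could not be applied, since no erythroid-like cell reached 1%.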

Additional observations from a re-analysis of the deposited data

Results flagged for a closer look

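Barcodes of at most 200 genes, which no comparison uses, held 1630 haemoglobin UMIs in the WT library and 1073 in the Bmx-CreER Wls library, 75.2% and 77.6% of all haemoglobin UMIs. In the WT library they also held 8 *Slc25a37* and 5 *Fech* UMIs, above the 3 counts that a count of 0 allows, and of these 7 and 5 lay in 2 barcodes with mostly haemoglobin UMIs. *Tfrc* went in opposite directions between the libraries in 2 classes, with ratios of the Bmx-CreER Wls to the WT library of 1.45 in cartilage-like and 0.864 in erythroid-like cells, and this difference was not tested, since there is 1 library per genotype.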

How the results depend on the processing

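No paired analysis was possible because there is 1 library per genotype. The count of members at least 2-fold higher in erythroid-like cells ran from 5 to 6 in the WT and from 4 to 6 in the Bmx-CreER Wls library over all alternatives. *Alas2* stayed at 0% in erythroid-like cells throughout. Thinning the cells of at least 1000 UMIs to that depth gave 1 member higher in WT osteoclast-like cells in place of 2. The WT ratios of *Tfrc* and *Alas1* over stromal-like cells stayed at or above 38.2 and 3.40 under the alternatives. After thinning, *Alas1* was found in only 5.59% of 161 osteoclast-like and 0.700% of 1286 stromal-like WT cells. The lower count thus reflects the floor of 20 UMIs for a comparison and not a lower ratio. Thinning also gave 1 member past 1.5-fold between libraries in erythroid-like cells in place of 0. With 30 components, where the erythroid-like class shrank to 84 and 35 cells, the count between libraries was also 1. Of 421 member ratios recomputed under alternatives, 372 stayed in the interval of the reported value, 46 moved out of it and 3 reversed. *Alas1* in WT erythroid-like cells was at 1.0 of the stem and progenitor level. After thinning, *Alas1* had no UMI in Bmx-CreER Wls osteoclast-like cells, a ratio of 0, and *Ppox* in WT osteoclast-like over stromal-like cells was at 1.6. The causes were not tested. The *Cpox* ratio of erythroid-like cells ran from 5.74 to 16.1 in the WT library and from 7.14 to 12.5 in the other, and *Tfrc* in cartilage-like cells between libraries from 1.29 to 1.63. The authors' listed classes gave 65 erythroid cells and the same count of 6 in the WT library. Of these 65 cells, 59 were erythroid-like here, so most of the 170 WT erythroid-like cells were not in the authors' erythroid class. Their listed classes named no osteoclasts, so the osteoclast comparison was not run with them. Nothing was run for the haemoglobin ranges or for cells ranked in equal parts by haemoglobin share, since 32 of 170 and 14 of 72 cells had any haemoglobin UMI. The stem and progenitor and *Tfrc* cartilage alternatives were chosen after seeing the data.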
